A study of Mus musculus with 6 samples.

Results

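The genes described here are 9 components of Hedgehog reception in the mouse: the receptor Ptch1, the transducer Smo, the ligand-binding antagonist Hhip, the co-receptors Boc, Cdon and Gas1, and the transcription factors Gli1, Gli2 and Gli3. They were found as the probe sets (groups of array probes read out as 1 value) whose platform annotation names 1 of these symbols and no other gene. That gave 24 of the 45037 probe sets tested, and 9 of 18193 singly named genes. Expression was measured on Affymetrix arrays in whole pancreas dissected at embryonic stage E12.5 from Hox6 null embryos, 3 arrays, and from wild type control embryos, 3 arrays, both on the Bl6 strain. Hox6 stands for the paralogous homeobox genes Hoxa6, Hoxb6 and Hoxc6; the labels give neither the alleles nor the part of each gene that is disrupted. The number of embryos behind each sample is not given, so p-values cover the spread between samples described as biological replicates.

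Hedgehog ligands bind Ptch1, which otherwise holds Smo inactive; released Smo acts through the primary cilium to stop the processing of Gli2 and Gli3 into repressors and to let Gli activators form. Boc, Cdon and Gas1 present ligand to Ptch1, whereas Hhip binds ligand and removes it. Ptch1, Hhip and Gli1 are themselves common transcriptional targets of the pathway, so their levels are often used as its readouts. In the embryonic foregut the epithelium makes the ligands and the surrounding mesenchyme answers them, and the pancreatic epithelium is known for keeping Sonic hedgehog off while stomach and duodenum express it.

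The null arrays were less alike than the controls, which touches every result below. Pairs of arrays correlated across probe sets at 0.980 to 0.987 (Pearson) among null arrays and 0.994 to 0.995 among controls. The pancreatic regulators Pdx1, Ptf1a and Nkx6-1 read 7.50 to 9.97 on the log2 scale in null arrays and 7.34 to 8.83 in control arrays, against an array median between 5.97 and 6.02. The mean of 10 pancreatic progenitor markers was 9.14, 8.82 and 8.073 in null 1, 2 and 3, against 7.769 to 8.071 in controls. All 10 had a positive difference. The mean of 16 epithelial markers was 9.32, 9.15 and 8.40 in null 1, 2 and 3, against 8.34 to 8.41 in controls, and the mean of 22 mesenchymal markers was 9.22, 9.36 and 9.37 in the null arrays, against 9.73 to 9.83 in controls. Null 3 alone had a raised level of Sox2, a stomach and foregut factor. It read 5.40 there, against 2.57 and 2.70 in the other null arrays and 2.54 to 3.12 in controls. The stomach mesenchyme factor Barx1 was also highest in null 3, at 10.70 against 9.30 to 10.02 in the other arrays. The mean of 6 stomach and intestine epithelium markers differed less, at 4.16, 4.04 and 4.42 in null 1, 2 and 3, against 3.82 to 4.12 in controls. Of the targeted genes Hoxb6 differed by -0.42 (adjusted p = 0.393) and the 3 probe sets of Hoxc6 by +0.13, +0.47 and +0.73 (adjusted p = 0.551, 0.380 and 0.253; limma); a probe set outside the disrupted part checks nothing. In whole organs, fewer cells of a type and less RNA per cell cannot be told apart. Fits with the epithelial level as a covariate set mostly null 3 against controls, since null 3 lay within the control range of that level.

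No Hedgehog member changed at the threshold used, an adjusted p under 0.05 over all probe sets (limma, Benjamini-Hochberg). Of all 45037 probe sets 0.00222%, a single one, passed, so the count of 0 among 24 stands against a test that called almost nothing. At an unadjusted p under 0.05 there were 7 of the 24 member probe sets, 2 higher and 5 lower, against 15.0% of all probe sets (8.17% higher and 6.79% lower). The arrays of the groups did not overlap for 5 of 24, 1 higher and 4 lower, against 22.0% of all probe sets (12.1% higher and 9.89% lower). Of the 9 genes, each taken at its brightest probe set, 7 had a negative difference and 2 a positive one, with a median of -0.17; over all genes 44.0% were negative and the median was +0.03. With 1 probe set per gene 0.0715% of all genes passed and 0 of the 9 members. With 3 against 3 arrays an exact permutation test cannot go below p = 0.1, so single genes are given with their limma values. Hhip, Gli2 and Boc had the widest mean differences of the 9 genes and were also the 3 without overlap, against 23.8% of all genes.

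**Figure D1:**
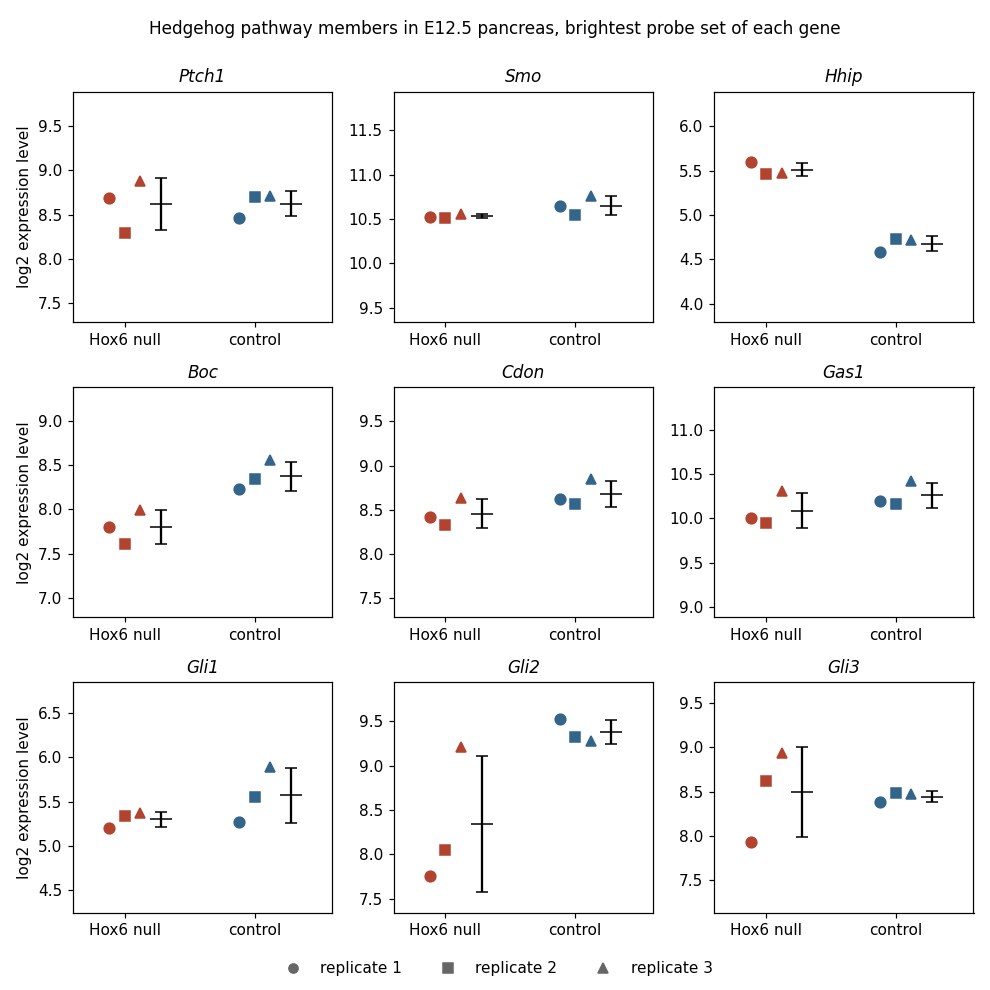
Log2 expression level (vertical axis, the same span in every panel) of the brightest probe set of each of the 9 members in the 3 Hox6 null arrays (red, left) and the 3 control arrays (blue, right), with marker shape for the replicate number; the black bar gives mean and SD (n = 3 each). Hhip lies at 5.46 to 5.60 in null arrays and 4.58 to 4.73 in controls, while for Gli2 null 3 sits just below the controls and null 1 and null 2 far below.

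The promoters of Hhip and Gli2 are shown because these 2 genes have the largest difference in each direction and act at opposite ends of the pathway, one on the ligand and the other on the response. Promoter sequences of 300 bases (250 before and 50 after a transcription start) came from RefSeq (GRCm38.p6) and were found for 7 of the 9 members. They were searched on both strands for the Gli consensus GACCACCCA, and for its core ACCACCC, which lies inside the consensus. The consensus was in 0.253% of all 32851 promoters of that length and in 0 of the 7; the core was in 4.61% of all promoters and in 1 of the 7, that of Gli2. The 250 bases before the start are printed in the direction of transcription, chr8:80058009-80058258 on the minus strand for Hhip and chr1:119053620-119053869 on the minus strand for Gli2, with the core match, read on the opposite strand, in capitals.
Hhip: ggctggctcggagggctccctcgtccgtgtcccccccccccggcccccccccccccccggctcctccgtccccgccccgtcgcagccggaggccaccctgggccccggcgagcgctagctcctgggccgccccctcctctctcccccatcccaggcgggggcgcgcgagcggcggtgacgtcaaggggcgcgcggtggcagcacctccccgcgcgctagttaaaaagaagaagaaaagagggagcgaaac
Gli2: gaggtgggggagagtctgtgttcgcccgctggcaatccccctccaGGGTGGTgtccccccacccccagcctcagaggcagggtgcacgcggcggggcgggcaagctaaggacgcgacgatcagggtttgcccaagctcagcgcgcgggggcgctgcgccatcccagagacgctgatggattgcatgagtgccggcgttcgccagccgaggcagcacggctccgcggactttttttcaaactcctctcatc
A match describes letters and is no evidence of a binding site, and no match says only that these letters are not in this window. The array carries no measurement of binding at either promoter.

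Hhip, the membrane-anchored antagonist that captures Hedgehog ligands, had the clearest difference of the 9 genes. Its brightest probe set, 1421426_at, read 5.60, 5.46 and 5.47 in null 1, 2 and 3, against 4.58, 4.73 and 4.72 in control 1, 2 and 3. All null arrays lay above all controls, and the spread within a group was small beside the gap. The mean difference was +0.84 ± 0.10 (SE; 95% interval 0.59 to 1.08), a 1.79-fold higher level, and it ranked 29 among 45037 probe sets by p-value. It did not pass over all probe sets (adjusted p = 0.101) or over 1 probe set per gene (adjusted p = 0.0607; limma). The level is below the array median of 5.99. RMA values near background can understate changes, and whether that holds for Hhip was not tested.

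The other 3 Hhip probe sets were dimmer and less clear. Probe set 1455277_at read 5.24, 5.36 and 4.11 in the null arrays, against 4.38, 3.71 and 4.64 in controls. Here null 1 and null 2 were high and null 3 lay among the controls, with a difference of +0.66 ± 0.37 (SE). Probe set 1438083_at read 3.86, 3.50 and 3.70 in null arrays, against 3.51, 3.25 and 3.16 in controls, where null 2 overlapped control 1 (+0.38 ± 0.14, SE, adjusted p = 0.297, limma). Probe set 1437933_at overlapped fully, at +0.15 ± 0.22 (SE). All 4 differences of Hhip were thus positive, 2 of them with an unadjusted p under 0.05, and 1 set the groups apart; averaging the 4 gave +0.51 ± 0.15 (SE). With the epithelial level as a covariate the difference on 1421426_at was +0.79 ± 0.14 (SE, adjusted p = 0.193, limma), and without null 3 it was +0.86 ± 0.11 (SE, adjusted p = 0.0194), past the threshold. The same covariate gave -0.15 ± 0.33 (SE) on 1455277_at, +0.34 ± 0.20 (SE) on 1438083_at and -0.18 ± 0.27 (SE) on 1437933_at, so that 2 of the 4 probe sets turned. These fits set mostly null 3 against controls, and the part of tissue makeup in the Hhip values was not tested.

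Ptch1, the receptor that represses Smo and is induced by Hedgehog signals, gave a different value on each of its probe sets. The brightest, 1428853_at, read 8.69, 8.30 and 8.88 in null arrays, against 8.46, 8.71 and 8.71 in controls, and the ranges overlapped (-0.004 ± 0.168, SE; 95% interval -0.40 to 0.39). On 1450824_at null 1 read 6.93, null 2 6.12 and null 3 7.38, against 6.14, 6.12 and 6.37 in controls. Null 3 and null 1 were high there while null 2 was level with the lowest control, and the difference was +0.60 ± 0.29 (SE, adjusted p = 0.377, limma). The dimmest, 1439663_at, differed by +0.20 ± 0.13 (SE) with overlapping arrays. Null 3 was the highest array on all 3 Ptch1 probe sets, on the dimmest only narrowly (6.13 against 6.11 in control 2). It is also the array with the raised Sox2 level. The part of accompanying tissue in the Ptch1 values was not tested.

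Smo, the transmembrane protein that carries the signal inward, overlapped between the groups on its brightest probe set. Values on 1427048_at were 10.53, 10.51 and 10.56 in null arrays, against 10.64, 10.55 and 10.77 in controls, a difference of -0.12 ± 0.10 (SE; 95% interval -0.36 to 0.13) with null 3 above control 2. Probe set 1427049_s_at, annotated from the same expressed sequence, read 7.37, 7.44 and 7.71 in null arrays, against 7.77, 7.77 and 7.84 in controls. On it all null arrays lay below the controls, null 3 closest to them (-0.29 ± 0.12, SE, adjusted p = 0.334, limma). The third, 1442215_at, overlapped, at -0.06 ± 0.21 (SE). The 3 differences were all negative.

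Boc, a co-receptor of the immunoglobulin superfamily, was lower on average on its 2 bright probe sets. On 1427516_a_at it read 7.80, 7.61 and 7.99 in null 1, 2 and 3, against 8.23, 8.35 and 8.55 in controls. The groups did not overlap, with null 3 nearest the controls, and the difference was -0.57 ± 0.14 (SE; 95% interval -0.91 to -0.24), a 1.49-fold lower level that did not pass over all probe sets (adjusted p = 0.212) or over genes (adjusted p = 0.166; limma). On 1426869_at it read 7.68, 7.89 and 7.87 in null arrays, against 7.998, 8.09 and 8.25 in controls. These arrays did not overlap either, at -0.30 ± 0.12 (SE, adjusted p = 0.310, limma). The third, 1427517_at, read 3.31 to 4.03 in null arrays and 3.53 to 3.93 in controls, near the floor of the array, and differed by +0.05 ± 0.21 (SE); averaging the 3 gave -0.28 ± 0.08 (SE). With the epithelial level as a covariate the difference on 1427516_a_at was -0.40 ± 0.18 (SE, adjusted p = 0.504, limma).

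Cdon, the relative of Boc, and Gas1, a lipid-anchored co-receptor, overlapped between the groups on every probe set. Cdon on 1434957_at read 8.41, 8.33 and 8.64 in null arrays, against 8.62, 8.56 and 8.85 in controls, so that null 3 lay inside the control range (-0.22 ± 0.13, SE; 95% interval -0.53 to 0.09). Its second probe set, 1421452_at, differed by -0.08 ± 0.14 (SE). Gas1 on 1456322_at read 10.00, 9.95 and 10.31 in null arrays, against 10.20, 10.16 and 10.42 in controls, again with null 3 among the controls. The 3 Gas1 probe sets differed by -0.17, -0.20 and -0.15, none without overlap. All 5 differences of these co-receptors were negative, and null 3 was higher than null 1 on each of the 5. Whether Boc differed from Cdon or Gas1 in its response was not tested.

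**Figure D2:**
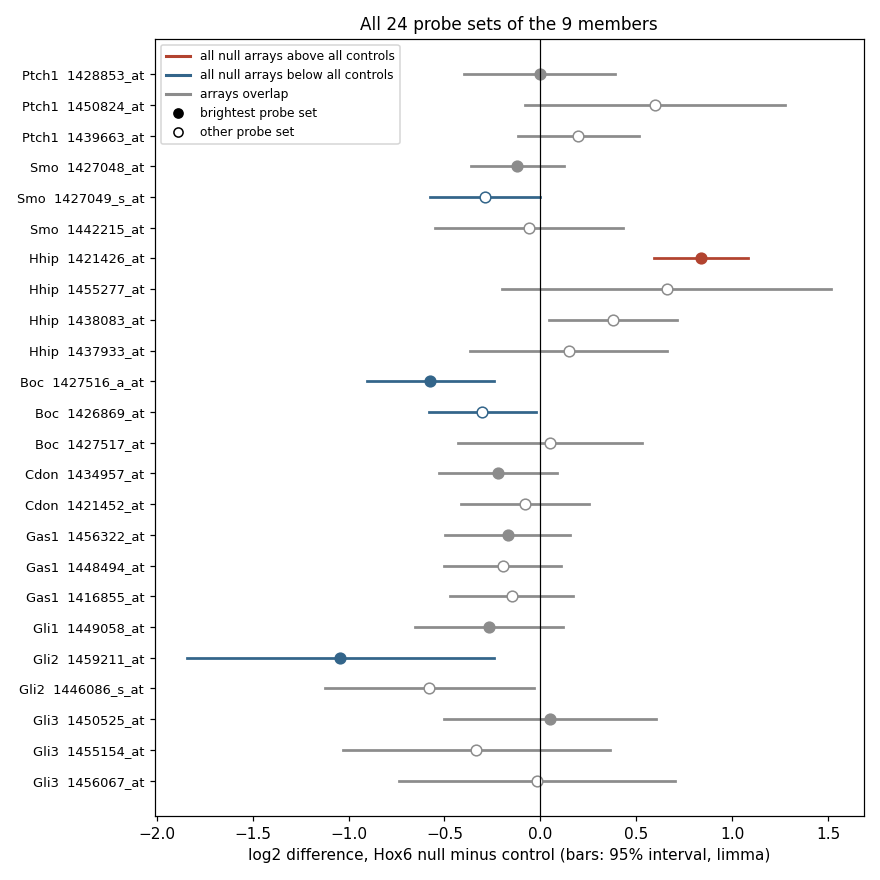
Log2 difference, Hox6 null minus control (horizontal axis), of each of the 24 member probe sets with its 95% interval from limma; filled points mark the brightest probe set of a gene, red those with all null arrays above all controls, blue those with all null arrays below, grey those that overlap. All 4 Hhip points lie right of 0 and both Gli2 points left of it, and 4 blue bars belong to Smo, Boc (2) and Gli2.

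Gli2, the main activator among the Gli factors that carry the signal first, had the largest mean difference of all 24 member probe sets, and it rested on null 1 and null 2. Probe set 1459211_at read 7.75, 8.05 and 9.21 in null 1, 2 and 3, against 9.53, 9.33 and 9.28 in controls. Null 3 lay just below the lowest control, and null 1 and null 2 far below it. The mean difference was -1.04 ± 0.34 (SE; 95% interval -1.84 to -0.24), a 2.06-fold lower level with adjusted p = 0.263 (limma). The second probe set, 1446086_s_at, is annotated from the same expressed sequence and is no separate check. It read 7.29, 7.54 and 8.25 in null arrays, against 8.36, 8.20 and 8.26 in controls, with null 3 inside the control range (-0.58 ± 0.23, SE).

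Gli2 was lowest in null 1 and null 2, the arrays with the highest epithelial marker level. Among the null arrays this contrast rests on null 3 alone. Without null 3 the Gli2 difference was -1.48 ± 0.14 (SE, adjusted p = 0.0139, limma) on 1459211_at. On 1446086_s_at it was -0.86 ± 0.13 (SE, adjusted p = 0.0233, limma), and both passed the threshold. With the epithelial level as a covariate the differences on these probe sets were -0.15 ± 0.17 (SE, adjusted p = 0.824, limma) and +0.002 ± 0.152 (SE). That fit sets mostly null 3 against controls, because null 1 and null 2 stand apart on the covariate. Mesenchymal, mesothelial and endothelial marker lists were lower in all 3 null arrays: 21 of 22 mesenchymal markers, 8 of 10 mesothelial and 12 of 12 endothelial ones had a negative difference. The mean mesenchymal level was 9.22, 9.36 and 9.37 in null 1, 2 and 3, against 9.73 to 9.83 in controls, so that null 3 was close to null 2. The mean mesothelial level was 6.42, 6.52 and 7.03 in null arrays, against 7.43 to 7.65 in controls. The mean endothelial level was 7.77 to 8.13 in null arrays and 8.43 to 8.55 in controls. The part of tissue makeup in the Gli2 values was not tested.

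Gli3, the main repressor form among the Gli factors, varied widely among null arrays and little among controls. On 1450525_at it read 7.94, 8.62 and 8.93 in null arrays, against 8.38, 8.48 and 8.47 in controls. Null 1 lay below and null 2 and null 3 above all controls, for a difference of +0.05 ± 0.24 (SE). On 1455154_at it read 7.59, 7.65 and 8.77 in null arrays, against 8.27, 8.39 and 8.36 in controls, so that null 1 and null 2 were low and null 3 high (-0.33 ± 0.30, SE). Probe set 1456067_at read 6.38, 7.33 and 7.70 in null arrays, against 7.29, 7.12 and 7.05 in controls (-0.02 ± 0.31, SE). With the epithelial level as a covariate the 3 differences were +0.56 ± 0.22, +0.45 ± 0.14 and +0.64 ± 0.29 (SE; adjusted p = 0.433, 0.349 and 0.505, limma). Null 3 was the highest of the 6 arrays and null 1 the lowest on all 3 Gli3 probe sets. The SD of null arrays was 0.51, 0.67 and 0.68, against 0.06, 0.06 and 0.12 in controls.

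Gli1, a Gli factor that acts as an activator and a target at once, was measured by 1 probe set below the array median. It read 5.20, 5.34 and 5.37 in null arrays, against 5.27, 5.55 and 5.89 in controls. Null 2 and null 3 fell between control 1 and control 2, and control 3 stood above the rest; the difference was -0.27 ± 0.17 (SE; 95% interval -0.66 to 0.12, adjusted p = 0.466, limma). Of the 3 common target genes of the pathway, Hhip was thus higher on average, Gli1 lower on average and Ptch1 level on its brightest probe set. None of the 3 passed.

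Leaving out null 3 changed the count of member probe sets past the threshold to 4: 1421426_at of Hhip higher, and 1459211_at and 1446086_s_at of Gli2 and 1455154_at of Gli3 lower (-0.72 ± 0.11, SE, adjusted p = 0.0241, limma). Of all probe sets 4.22% passed then, 2.02% higher and 2.20% lower. The Gli2 probe sets are annotated from the same expressed sequence and are no separate checks. The other Gli3 probe sets did not pass. In that fit 1450525_at, the brightest, stood at -0.17 ± 0.20 (SE, adjusted p = 0.639, limma). Probe set 1456067_at stood at -0.30 ± 0.26 (SE, adjusted p = 0.515, limma). The remaining null arrays had epithelial levels of 9.32 and 9.15, against 8.34 to 8.41 in controls. Genotype and epithelial level cannot be told apart in this fit. Boc on 1427516_a_at stood at -0.67 ± 0.14 (SE) with an adjusted p of 0.0501, just short of the threshold. With any other array left out 0 of 24 member probe sets passed.

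**Figure D3:**
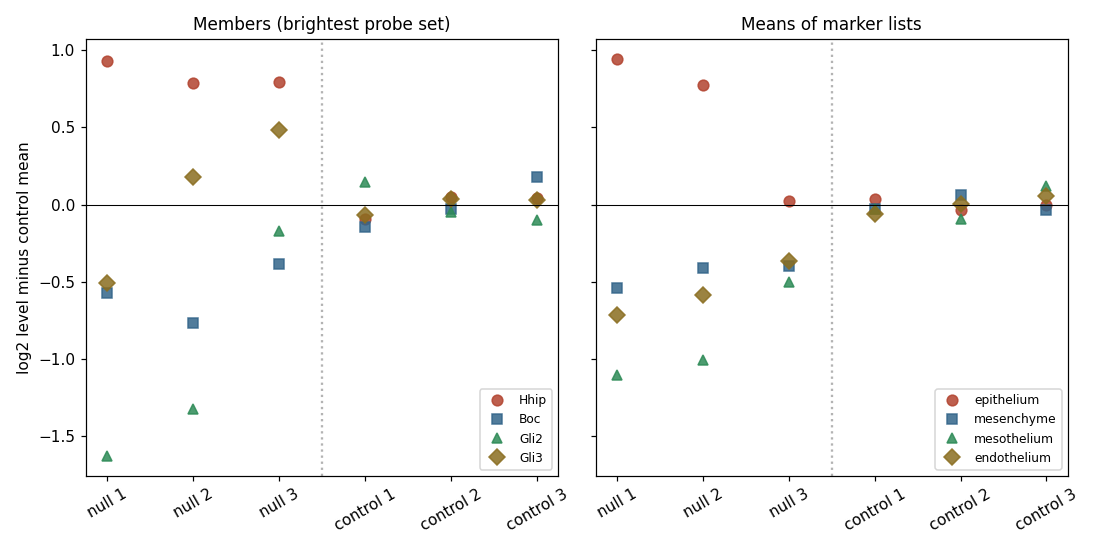
Log2 level minus the control mean (vertical axis) in each of the 6 arrays, for the brightest probe sets of Hhip, Boc, Gli2 and Gli3 (left panel) and for the mean levels of 4 marker lists (right panel). Hhip is raised in all 3 null arrays, while Gli2 is low in null 1 and null 2, the arrays in which the epithelial list is high, and close to the controls in null 3.

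Other components of the pathway were described from lists of ligands and their release, intracellular transducers, the primary cilium and possible targets in gut mesenchyme. None of their genes passed over all probe sets. At the brightest probe set of each gene, 8.18% of all genes were higher and 7.77% lower at an unadjusted p under 0.05, and 12.2% were higher and 11.7% lower without overlap, which is the background of the counts that follow. Of 12 ligand and release genes 1 was higher and 1 lower at an unadjusted p under 0.05 and 0 were without overlap, with a median difference of -0.04 beside +0.03 over all genes. Sonic hedgehog, Shh, read 5.31, 4.998 and 5.23 in null arrays, against 5.35, 5.15 and 5.23 in controls on its brighter probe set, which differed by -0.07 ± 0.12 (SE). On the other Shh probe set null 3 read 4.52, against 2.39 and 2.62 in null 1 and null 2 and 2.28 to 2.40 in controls. Null 3 alone was high there, as it was for Sox2.

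Ihh, another ligand gene, overlapped between groups, at -0.04 ± 0.30 (SE). The ligand gene Dhh overlapped on its brightest probe set, at +0.30 ± 0.16 (SE). Its other probe set read 4.33, 4.30 and 4.30 in null arrays, against 4.52, 4.46 and 4.55 in controls, all null arrays lower (-0.20 ± 0.10, SE, adjusted p = 0.374, limma), so that the probe sets of Dhh disagreed in sign. Disp2, a relative of the ligand exporter Dispatched, read 7.74, 7.61 and 6.91 in null arrays, against 6.97, 6.32 and 6.57 in controls, so that null 3 lay inside the control range (+0.80 ± 0.25, SE, adjusted p = 0.257, limma). The other Disp2 probe sets differed by +0.66 and +0.04. The glypican Gpc6, a cell-surface proteoglycan, differed by -0.41 ± 0.15 (SE) on its brightest probe set, with overlapping arrays. Its other probe sets differed by -0.28, -0.43, -0.002 and -0.15, with no overlap on the one at -0.43. Hhat, the enzyme that attaches palmitate to the ligands, overlapped on each of its probe sets. The brightest differed by -0.28 ± 0.17 (SE) and the other by +0.09 ± 0.20 (SE), so that they disagreed in sign.

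Of 16 transducer genes 0 had an unadjusted p under 0.05 (limma) and 5 were without overlap, 1 higher and 4 lower, with a median of -0.09. Sufu, which holds Gli proteins in check, read 7.49, 7.51 and 7.76 in null arrays, against 7.71, 7.81 and 7.82 in controls (-0.20 ± 0.12, SE), and its other 2 probe sets differed by -0.01 and +0.01. The kinase-related gene Stk36 stood at +0.25 ± 0.13 (SE) and Prkacb, a catalytic subunit of protein kinase A, at -0.20 ± 0.11 (SE). Evc2, a ciliary partner of Smo, stood at -0.19 ± 0.11 (SE).

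Of 27 cilium genes 1 was higher and 4 were lower at an unadjusted p under 0.05, and 2 were higher and 4 lower without overlap, with a median of -0.01. Intu, needed for cilium formation, stood at -0.43 ± 0.12 (SE) on its brightest probe set, while its other 3 were at +0.05, +0.04 and +0.17. The transition zone gene Tmem216 stood at -0.35 ± 0.13, the transport gene Ift80 at -0.32 ± 0.12 and the transition zone gene B9d1 at +0.27 ± 0.11 (SE each; adjusted p between 0.230 and 0.312 for the 4 genes, limma). The mean level of the list was 7.50 to 7.51 in null arrays and 7.53 to 7.55 in controls.

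Of 17 genes listed as possible Hedgehog targets in gut mesenchyme 1 was higher and 3 were lower at an unadjusted p under 0.05 (limma). Without overlap 1 was higher and 4 were lower, and the median was -0.11. Whether these genes respond to Hedgehog in this tissue was not tested. Bmp4, a secreted growth factor, read 7.82, 7.67 and 7.16 in null arrays, against 8.05, 8.52 and 8.45 in controls. All null arrays were lower, null 3 the lowest of them (-0.79 ± 0.20, SE, adjusted p = 0.216, limma). The transcription factor Osr1 stood at -0.47 ± 0.17 (SE) and the cyclin gene Ccnd1 at +0.28 ± 0.11 (SE), both without overlap, and Ccnd1 had a positive difference on all 3 of its probe sets. Foxd1 stood at -0.53 ± 0.18 (SE) at levels of 2.82 to 3.83, near the floor.

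**Figure D4:**
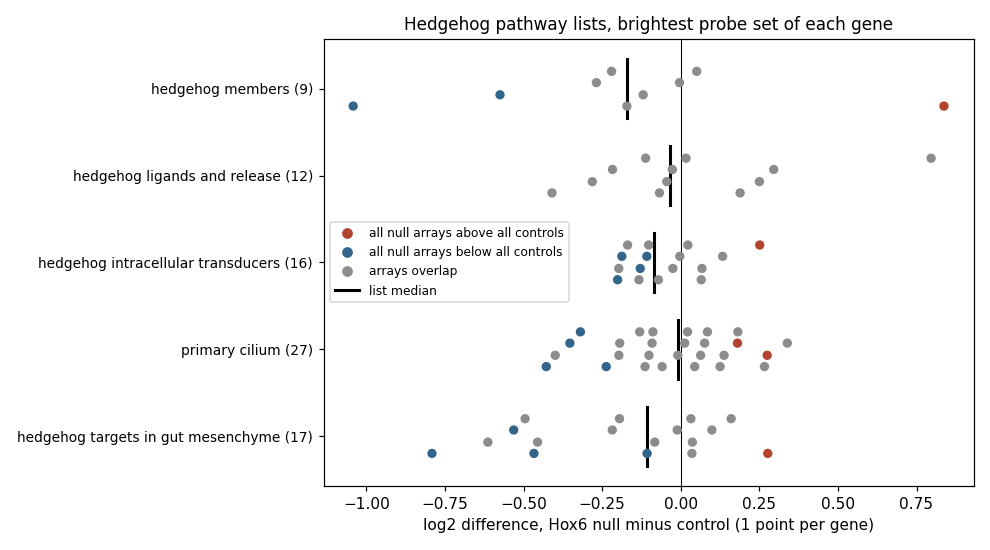
Log2 difference, Hox6 null minus control (horizontal axis), of each gene of the 9 members and of 4 lists of the pathway, at the brightest probe set of each gene; black lines give list medians, red and blue mark genes whose arrays do not overlap. The medians lie between -0.17 for the members and -0.01 for the cilium list.

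The genes whose values over the 6 arrays were most like those of each variable member were found by the root mean square difference of values centred on their mean, over 1 probe set per gene. For Hhip these were Nectin4 (0.08), Celsr2 (0.08) and Cadm1 (0.10), with differences of +0.77, +0.76 and +0.69 between null and control arrays. For Boc they were Prdm6 (0.06), Rgs19 (0.07) and Cry1 (0.07), at -0.55, -0.53 and -0.53. For Gli2 they were Afap1l2 (0.06), Abcd2 (0.12) and Psd3 (0.14), at -1.08, -0.89 and -0.84, with levels of 5.70, 5.90 and 7.05 for Afap1l2 in null arrays and 7.18 to 7.42 in controls. The nearest to Gli3 were 4931406H21Rik (0.04), Tbx1 (0.08) and Ct55 (0.08), those to Gli1 were Tcf15 (0.07), Dusp15 (0.07) and Xpc (0.08), and those to Ptch1 were Gm1976 (0.04), Helq (0.04) and Zscan20 (0.05). The likeness rests on 6 arrays and describes them only. Because these genes were picked for their likeness over the same arrays, their differences follow from that choice and are no separate result. Smo, Cdon and Gas1 varied less over the arrays than the median gene and were left out of this description.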

How the data were processed

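Per the labels' protocols, total RNA (10 ng) of frozen pancreata was amplified by the NuGEN WT-Pico Ovation kit, with 1 array per sample. The deposited table holds log2 values, 1 per probe set and array. RMA, affy and limma are named without versions, per the submitters' processing notes; RMA consists of background correction, quantile normalization and probe summary. Precision is limited by how many arrays there are. Detection calls were not used here. Array pairs shared 53 to 166 of 45037 values that were equal in all deposited digits.

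The 64 array controls were left out. A linear model with genotype as its single term was fitted to all 45037 probe sets with limma 3.58.1 in R 4.3.3 (two-sided, Benjamini-Hochberg, threshold 0.05), and checked on simulated data. Errors are moderated standard errors. The brightest probe set has the highest mean over the 6 arrays. Members, lists and tests were chosen with earlier results of these data known.

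The named genes were all members, up to 4 genes of each pathway list with the smallest p over 1 probe set per gene, Shh, Ihh, Dhh and Sufu, the 3 nearest patterns of each member varying more than the median gene, and the check genes. Sox2, Barx1 and the marker lists' levels in null 3 were picked out after their values were seen, as was the core motif. Alternatives changed probe set choice, dim filter, normalization, variance prior, array weights, block, covariates, threshold and arrays used.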

Additional observations from a re-analysis of the deposited data

How the results depend on the processing

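The numbers of arrays limit the precision, and dim probe sets, such as those of Hhip and Gli1, can understate changes, which was not tested. The mesenchymal level did not overlap between groups, so that a fit with it as a covariate has little information on genotype. The epithelial level of null 3 lay within the control range, and that of null 1 and null 2 above it. A fit with the epithelial level as a covariate therefore sets mostly null 3 against controls. The count of member probe sets past the threshold was 0 in all fits except that without null replicate 3, where it was 4; with 1 array left out it therefore ranged over 0 to 4. Over the whole table the count was 1, and 0 to 1902 with 1 array left out: 0 without null 1, null 2, control 2 or control 3, 3 without control 1 and 1902 without null 3. It was 13 with 1 probe set per gene, 13 with a gene's probe sets averaged, 5 with a mean level of at least 7, 0 with quantile normalization repeated (5966 at an unadjusted p under 0.05, limma), 63 with an intensity trend and robust prior, 41 with array weights, 10 with the epithelial covariate, 0 with the mesenchymal covariate (3275 at an unadjusted p under 0.05) and 26 at a threshold of 0.1. The 5 member probe sets without overlap were 5 with repeated normalization and 5 with median centring.

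On the brightest probe sets, and with a gene's probe sets averaged, the log2 differences of Smo, Hhip, Boc, Cdon and Gli1 kept their sign in all fits run; with the epithelial covariate dimmer probe sets of Hhip (-0.15 and -0.18), Smo (0.16), Cdon (0.14) and Boc (-0.41) turned. The values lay at 0.51 to 0.86 for Hhip and -0.67 to -0.28 for Boc, the nearest to 0 being those with a gene's probe sets averaged; the filters at 5 and 7 drop dim probe sets, and that at 7 gave no value for Hhip and Gli1. Gas1 turned to 0.05 (0.0497) with the epithelial covariate and Gli2 to 0.98 ± 1.29 (SE) with the mesenchymal covariate. Gli3 stood at 0.56 with the epithelial and 2.05 ± 0.66 (SE) with the mesenchymal covariate, turned to -0.10 with its probe sets averaged, and lay between -0.17 and 0.33 with 1 array left out. Ptch1 turned to 0.26 with its probe sets averaged, 0.0417 with repeated normalization, 0.23 with the epithelial and 0.0294 with the mesenchymal covariate, and lay between -0.13 and 0.16 with 1 array left out. The causes were not tested.

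Samples of both groups carry the numbers 1 to 3, with no statement that a number marks a shared litter or day. The deviations of same-numbered arrays from their group means correlated at 0.14, 0.005 and 0.06. With so few arrays, low values cannot show whether a number marks a shared litter or day. With the replicate block the whole-table count was 1 and the member count 0, with Hhip at an adjusted p of 0.200 (limma).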
